A study of Mus musculus with 38 samples.

Results

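The genes described here are 10 members of the TGF-beta pathway: the ligand genes Tgfb1, Tgfb2 and Tgfb3, the receptor genes Tgfbr1, Tgfbr2 and Tgfbr3, the latent TGF-beta binding protein genes Ltbp1 and Ltbp2, the activin subunit gene Inhba and the inhibitor gene Smad7. They were chosen by name, with no measured value in the rule, as 10 of the 55487 genes in the expression tables, and each of the 10 passed the filter on low counts in tumors (16241 genes tested) and in cell lines (13742 genes tested). TGF-beta is made as a latent complex, is tethered to the extracellular matrix through latent binding proteins, and signals after its release through the receptors encoded by Tgfbr2 and Tgfbr1 to Smad2 and Smad3. Smad7 is induced by the pathway and feeds back on the receptors, and the coreceptor encoded by Tgfbr3, betaglycan, presents the ligands, above all TGF-beta 2, to the receptor pair. In tumors the pathway is known for fibroblast activation, matrix deposition and suppression of T cells.

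RNA-seq was performed on omental tumors of 2 syngeneic mouse models of high-grade serous ovarian cancer and on their parental cell lines. 60577 cells came from female FVB mice and grew in FVB hosts, and HGS2 cells came from female C57BL/6 mice and grew in C57BL/6J hosts. All hosts were wild-type females, 8 to 9 weeks old when the cells were injected into the peritoneum. The driver alleles of the lines are not given in the sources used here. Treated mice received carboplatin at 20 mg/kg with paclitaxel at 10 mg/kg in 3 weekly doses, and control mice received vehicle. Tumors were taken at TP1, TP2 and TP3, which are 1, 7 and 21 days after the last dose, or 36, 42 and 56 days after injection for 60577 and 64, 70 and 84 days for HGS2. There were 3 TP1 control, 3 TP1 treated, 3 TP2 control, 4 TP2 treated and 4 TP3 treated 60577 tumors, and 3, 3, 4, 3 and 4 HGS2 tumors in the same order. TP3 had no controls, so TP3 treated tumors were set against TP2 controls: time and treatment cannot be told apart there, and the TP2 and TP3 comparisons share their controls. The cell lines were each represented by 2 monoculture libraries, which nothing in the labels describes as separate cultures, so their p-values may measure technical spread only. Libraries held 17839635 to 49299442 counts in tumors and 31633121 to 42461995 in cell lines, and the lowest count of any member in a tumor was 137, for Inhba.

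Several libraries stood apart. HGS2 TP3 treated replicate 1 is absent from the sample tables of the study and was left out of the tests, which therefore used 16 HGS2 tumors, except in an alternative fit of all 17. HGS2 TP1 control replicate 3, TP2 control replicate 2 and TP3 treated replicate 2 carried pancreatic acinar transcripts, with the 10 genes of that list summing to 64400, 126212 and 62840 CPM (counts scaled to a common library size), against 1612 CPM in the highest 60577 tumor. Results were repeated without these 3 tumors. In HGS2 TP1 control replicate 1 the 11 epithelial tumor cell genes summed to 48.3 CPM, against 682 and 372 CPM in replicates 2 and 3. Its Ltbp1, at 284 CPM, and Inhba, at 162 CPM, were the highest of the HGS2 controls. The tumor label was checked against epithelial and ovarian tumor markers. Wt1, a transcription factor of serous tumors and mesothelium, was at 427 and 406 CPM in the 60577 line and 306 and 292 CPM in the HGS2 line. Pax8, the Müllerian lineage factor, was below 1 CPM in every library, and Epcam, an epithelial adhesion gene, was at 3.31 and 4.82 CPM in the 60577 line and at 0 and 0.177 CPM in the HGS2 line. The whole epithelial tumor cell list, which includes these genes, summed to between 5379 and 5666 CPM in the 60577 line. In the HGS2 line it summed to between 1788 and 1984 CPM, and in both lines most of the sum came from its other genes. In whole tumors, fewer cells of a type and less RNA per cell cannot be told apart.

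Of the 10 members, Tgfb3 had the highest mean level per length in untreated tumors, with TP1 and TP2 controls pooled. It was at 42.2 ± 7.25 RPKM (CPM per kilobase of exon, mean ± SD, n = 6) in 60577 controls and 58.5 ± 25.3 (n = 7) in HGS2 controls. In 60577 controls it was followed on the RPKM scale by Tgfbr2 at 23.8, Tgfb1 at 21.3, Ltbp2 at 20.7, Tgfbr1 at 18.7, Tgfb2 at 18.01 and Smad7 at 17.9, whose ranges overlapped from each gene to the next. Tgfbr3 at 11.9 RPKM lay below Smad7 without overlap, and Inhba at 4.88 and Ltbp1 at 2.72 RPKM were lowest. The Inhba mean rested on TP2 control replicate 2 and was 1.62 ± 0.437 RPKM (n = 5) without it. In HGS2 controls Tgfbr2 at 51.5 and Ltbp2 at 42.1 RPKM came next after Tgfb3, and every gene overlapped its neighbour in the order. In HGS2 TP1 controls alone, Tgfbr2 at 58.1 RPKM lay above Tgfb3 at 44.1 RPKM. In treated 60577 tumors Ltbp2 had the highest mean of the members at TP1 (62.7 ± 13.2 RPKM, n = 3) and TP2 (54.4 ± 5.71, n = 4), and at TP3 (47.2 ± 9.67, n = 4) it lay below Tgfbr2 at 53.9 and Tgfb3 at 53.5 RPKM, with overlap.

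**Figure D1:**
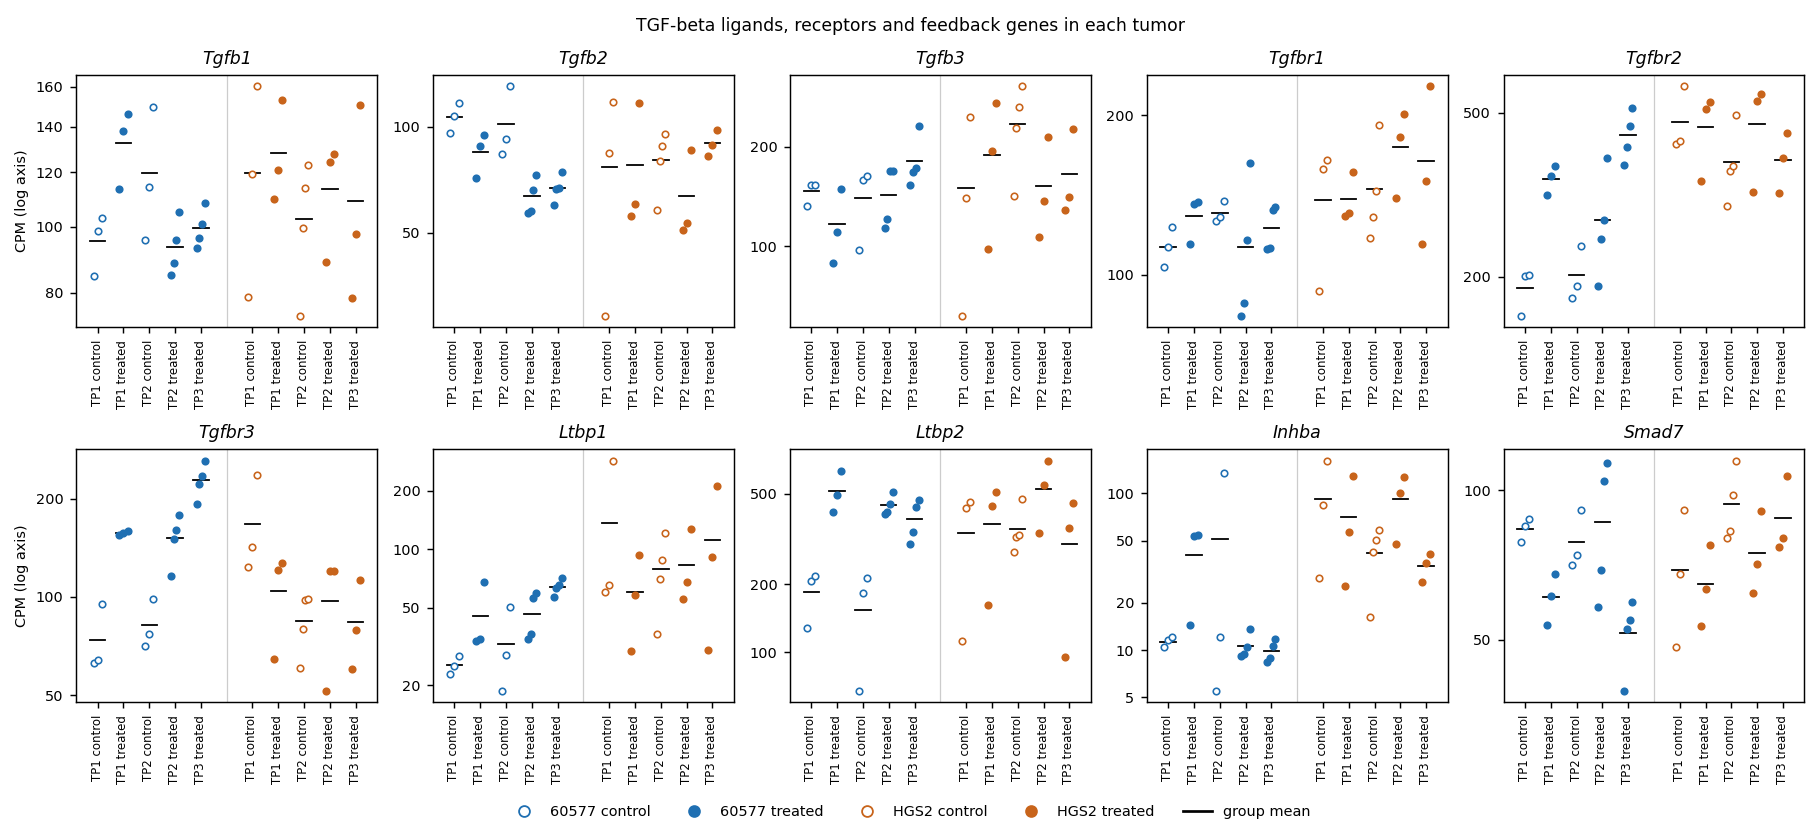
Level of each member in each tumor, in CPM on a log axis that differs between panels, for 60577 (blue, left) and HGS2 (orange, right); open circles are controls, filled circles treated tumors and bars group means, and HGS2 TP3 treated replicate 1 is not drawn. Tgfbr3 lies between 155 and 159 CPM in the TP1 treated 60577 tumors and between 62.8 and 95.0 CPM in their controls, and no such gap is seen in HGS2.

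The first question was which members changed with chemotherapy in 60577, the model described as chemo-sensitive. At TP1, 4 members rose and none fell, against 17.1% of all genes tested that rose and 16.2% that fell, by edgeR's quasi-likelihood test at a Benjamini-Hochberg adjusted p below 0.05. The count at TP1 was 7 without TP2 control replicate 3, a tumor of the other time point that entered the same fit. At TP2, 2 rose and 3 fell (29.2% and 29.2% of all genes). No label describes pairs, but same-numbered TP2 tumors were taken as paired from weak correlations of their deviations (r of 0.144, 0.114 and 0.134). The counts above come from the fit without pairing. With the replicate as a block 3 of these 5 calls were left, those of Tgfb1 and Inhba being lost. At TP3 against TP2 controls, 4 rose and 3 fell (25.3% and 26% of all genes). The median log2 fold change of the members was 0.63, 0.08 and 0.13 in the 3 comparisons, beside -0.002, 0.031 and 0 for all genes.

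**Figure D2:**
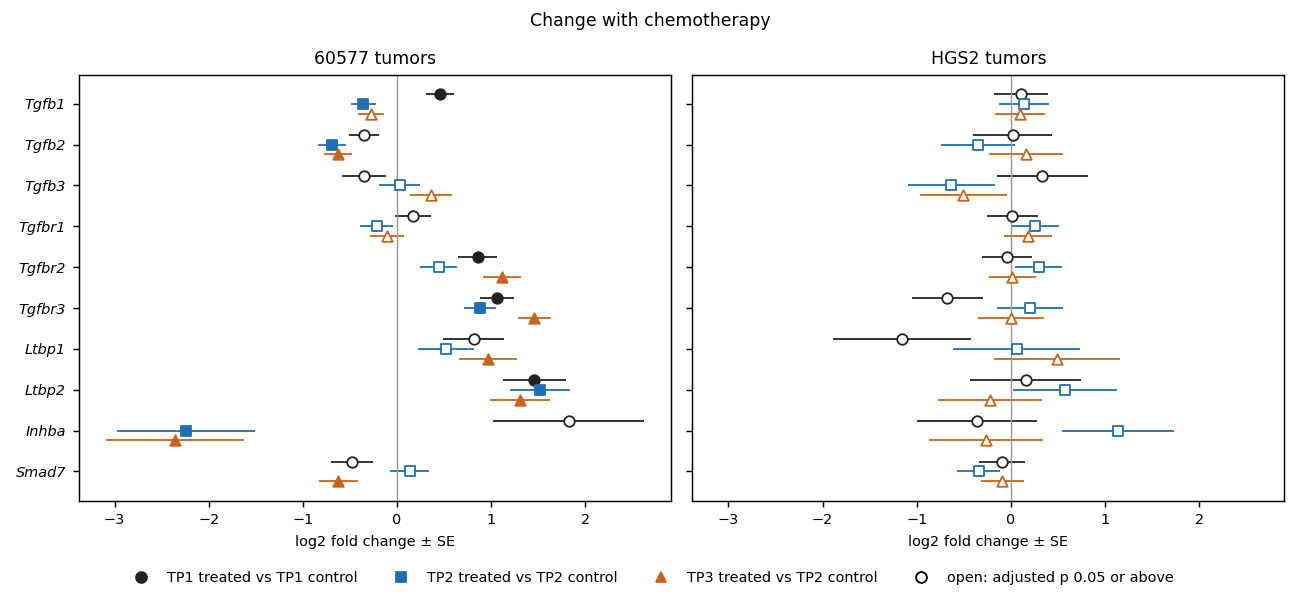
Log2 fold change of each member with its standard error (bars) in 60577 (left) and HGS2 (right) tumors, for TP1 (circles), TP2 (squares) and TP3 (triangles, against TP2 controls); filled symbols passed an adjusted p of 0.05. Ltbp2 and Tgfbr3 are filled at all 3 times in 60577, with values from 0.88 to 1.52, and no symbol is filled in HGS2.

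Ltbp2 encodes an extracellular matrix protein of the fibrillin family that, unlike the protein of Ltbp1, does not bind latent TGF-beta. It had the largest rise at TP1 and TP2 in 60577 among the members that passed, and its calls held at all 3 times in each of the 17 fits without 1 tumor and the 6 other settings tried. Ltbp2 (ENSMUSG00000002020, chromosome 12, 84783212 to 84876532, GRCm38) was at 128, 218 and 206 CPM in TP1 controls and at 494, 415 and 629 CPM in TP1 treated tumors. It was at 213, 67.9 and 183 CPM in TP2 controls, at 406, 414, 452 and 508 CPM in TP2 treated tumors, and at 340.3, 437, 468 and 301 CPM in TP3 treated tumors. Every treated tumor lay above every control. The log2 fold change of Ltbp2 was 1.46 ± 0.33 (SE, adjusted p = 0.00392) at TP1, 1.52 ± 0.32 (adjusted p = 0.00105) at TP2 and 1.31 ± 0.32 (adjusted p = 0.00299) at TP3.

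Ltbp1 (ENSMUSG00000001870, chromosome 17, 75005568 to 75392512) encodes the protein that crosslinks latent TGF-beta to the matrix. It was at 28.3, 22.97 and 25.1 CPM in TP1 controls and 34.5, 67.8 and 33.9 CPM in TP1 treated tumors, without overlap, but its log2 fold change of 0.81 ± 0.32 did not pass (adjusted p = 0.0642). It passed with DESeq2 and without TP2 control replicate 2 or 3 (lowest adjusted p = 0.0284). TP2 control Ltbp1 levels were 28.6, 50.3 and 18.8 CPM, TP2 treated levels 56.5, 59.4, 36.7 and 34.5 CPM, and TP3 treated levels 65.4, 63.4, 56.8 and 71.1 CPM. The TP3 tumors lay above all controls, and Ltbp1 rose by 0.97 ± 0.31 on the log2 scale at TP3 (adjusted p = 0.0154). This call was lost without TP2 control replicate 1 or replicate 3 and in a fit of both models together, with adjusted p up to 0.171.

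The receptor genes Tgfbr2 and Tgfbr3 were higher after chemotherapy, and Tgfbr1 was not called. Tgfbr3 (ENSMUSG00000029287, chromosome 5, 107106570 to 107289629) was at 95.0, 62.8 and 63.99 CPM in TP1 controls and 155, 156 and 159 CPM in TP1 treated tumors. TP2 controls held 70.7, 98.6 and 77.0 CPM of Tgfbr3, TP2 treated tumors 160.4, 150.2, 116 and 179 CPM, and TP3 treated tumors 235, 221, 193 and 261 CPM. No treated tumor overlapped the controls at any time. The log2 fold change of Tgfbr3 was 1.07 ± 0.18 (adjusted p = 0.000466) at TP1, 0.88 ± 0.17 (adjusted p = 0.00058) at TP2 and 1.46 ± 0.17 (adjusted p = 9.08e-06) at TP3, and each call passed in all 17 fits that left out 1 tumor.

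Tgfbr2 (ENSMUSG00000032440, chromosome 9, 116084293 to 116175360), the gene of the receptor that binds the ligand first, was at 161, 201 and 202 CPM in TP1 controls and at 371, 351 and 316 CPM in TP1 treated tumors. TP2 control tumors held 238, 177 and 189.8 CPM of Tgfbr2, TP2 treated tumors 388, 275, 190.2 and 246 CPM, and TP3 treated tumors 413, 464, 374 and 514 CPM. Treated and control tumors were apart at TP1 and TP3 and overlapped at TP2. Tgfbr2 rose by 0.86 ± 0.21 on the log2 scale at TP1 (adjusted p = 0.00554) and by 1.12 ± 0.20 at TP3 (adjusted p = 0.000273). At TP2 the value was 0.44 ± 0.20 (adjusted p = 0.0633), which passed without TP2 control replicate 1 or TP2 treated replicate 3 (lowest adjusted p = 0.0138). Tgfbr1 (ENSMUSG00000007613, chromosome 4, 47353222 to 47414931), the gene of the signalling partner of that receptor, ranged from 83.6 to 163 CPM over the 17 tumors. Its log2 fold changes were 0.17 ± 0.19, -0.22 ± 0.18 and -0.11 ± 0.18, with adjusted p of 0.519, 0.303 and 0.643, and the TP2 value passed without TP2 treated replicate 1, the highest of its group (adjusted p = 0.00752).

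Among the ligand genes, Tgfb2 fell, Tgfb3 was not called and Tgfb1 was called in opposite directions at TP1 and TP2. Tgfb2 (ENSMUSG00000039239, chromosome 1, 186622792 to 186705989) was at 95.8, 107 and 116 CPM in TP1 controls, 87.9, 94.9 and 71.6 CPM in TP1 treated tumors and 83.5, 92.3 and 130.5 CPM in TP2 controls. TP2 treated tumors held 66.1, 73.0, 57.8 and 56.8 CPM of Tgfb2 and TP3 treated tumors 59.8, 66.7, 67.0 and 74.3 CPM. Every treated tumor of TP2 and TP3 lay below every control. Tgfb2 fell by 0.69 on the log2 scale at TP2 (SE 0.15, adjusted p = 0.00132) and fell by 0.62 at TP3 (SE 0.15, adjusted p = 0.00276). At TP1 its value was -0.35 ± 0.16 (adjusted p = 0.108), which passed without TP2 control replicate 3 (adjusted p = 0.0498). The calls at TP2 and TP3 were lost only in a fit of both models together, with adjusted p of 0.0607 and 0.0893.

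Tgfb1 (ENSMUSG00000002603, chromosome 7, 25687002 to 25705077) was at 84.6, 98.7 and 103 CPM in TP1 controls and 146, 114 and 138 CPM in TP1 treated tumors, without overlap. TP2 controls held 114, 149.6 and 95.5 CPM of Tgfb1, TP2 treated tumors 105, 95.6, 88.5 and 85.0 CPM, and TP3 treated tumors 101, 108, 96.3 and 93.2 CPM. The TP2 groups overlapped. The log2 fold change of Tgfb1 was 0.45 ± 0.15 (adjusted p = 0.0269) at TP1, -0.36 ± 0.14 (adjusted p = 0.0354) at TP2 and -0.28 ± 0.14 (adjusted p = 0.104) at TP3. The TP1 call was lost without TP1 control replicate 1 or 2 or TP1 treated replicate 1 or 3, without the filter on low counts and in the fit of both models (adjusted p up to 0.19). The TP2 call was lost without TP2 control replicate 1 or 2 or TP2 treated replicate 2, 3 or 4, with the replicate block and in the fit of both models (adjusted p up to 0.277). The TP3 value passed without TP2 control replicate 3 (adjusted p = 0.0211). Tgfb3 (ENSMUSG00000021253, chromosome 12, 86056745 to 86079041) ranged from 88.9 to 231 CPM in 60577 tumors, with log2 fold changes of -0.35 ± 0.23, 0.03 ± 0.22 and 0.36 ± 0.22 and adjusted p from 0.182 to 0.913.

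Inhba (ENSMUSG00000041324, chromosome 13, 16011851 to 16031621) encodes the subunit of activin A, a relative of TGF-beta that signals through the same Smads. It was at 11.5, 10.4 and 12.1 CPM in TP1 controls, 54.3, 14.4 and 53.2 CPM in TP1 treated tumors and 12.2, 135 and 5.51 CPM in TP2 controls. TP2 treated tumors held 9.21, 9.47, 10.5 and 13.6 CPM of Inhba and TP3 treated tumors 8.40, 8.90, 10.6 and 11.8 CPM. TP2 control replicate 2 was therefore far above every other 60577 tumor, and 2 of the 3 TP1 treated tumors were the next highest. The log2 fold change at TP1 was 1.82 ± 0.80 (adjusted p = 0.0927), and this value passed without TP2 control replicate 2 or 3 (lowest adjusted p = 0.00256). The log2 fold changes at TP2 and TP3, -2.24 ± 0.73 (adjusted p = 0.0164) and -2.36 ± 0.73 (adjusted p = 0.0139), rested on that 1 control. Without it they were 0.26 (adjusted p = 0.6254) and 0.14 (adjusted p = 0.814), and both calls were also lost under limma-voom and with the replicate block. The neutrophil list of 7 genes summed to 62.4, 32.3 and 142 CPM in TP1 treated tumors and 22.96, 45.2 and 17.6 CPM in TP2 controls, so that the 2 TP1 treated tumors and the 1 TP2 control with high Inhba had more neutrophil transcript than the others of their groups. The most abundant gene of this list was Csf3r, 5 of its 7 genes were at 0 in some tumor, and its part in the Inhba levels was not tested.

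Smad7 (ENSMUSG00000025880, chromosome 18, 75367529 to 75395935) was at 78.7, 87.5 and 84.5 CPM in TP1 controls, 53.6, 61.3 and 67.9 CPM in TP1 treated tumors and 74.1, 91.2 and 70.7 CPM in TP2 controls. TP2 treated tumors held 58.1, 69.1, 113 and 104 CPM of Smad7 and TP3 treated tumors 52.5, 59.4, 54.7 and 39.4 CPM. The treated tumors of TP1 and TP3 lay below all controls, and those of TP2 lay on both sides. Smad7 fell by 0.62 on the log2 scale at TP3 (SE 0.20, adjusted p = 0.0187), and its values at TP1 and TP2 were -0.48 ± 0.22 (adjusted p = 0.108) and 0.13 ± 0.21 (adjusted p = 0.587). The TP3 call was lost without TP2 control replicate 2 or TP3 treated replicate 4 (adjusted p up to 0.0828).

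The second question was how levels moved over time. Between TP1 and TP2 treated tumors, Tgfb1 fell by 0.48 on the log2 scale (SE 0.14, adjusted p = 0.0263) and no other member passed, in a comparison where 9.43% of genes rose and 9.86% fell. The call of Tgfb1 was lost without TP1 treated replicate 1 or 3 or TP2 treated replicate 3 or 4, with the replicate block and in the fit of both models, while 5 members passed without TP2 treated replicate 1, 3 without TP2 control replicate 3, and 2 without TP1 treated replicate 2, TP2 control replicate 2 or TP2 treated replicate 2. Between TP2 and TP3 treated tumors, Tgfbr2 rose by 0.67 ± 0.18 (adjusted p = 0.0126) and Tgfbr3 by 0.58 ± 0.16 (adjusted p = 0.013), and Smad7 fell by 0.76 (SE 0.19, adjusted p = 0.01), beside 16.2% of genes that rose and 18.8% that fell. The Tgfbr3 call was lost in the fit of both models (adjusted p = 0.123). The Tgfbr1 value of 0.11 ± 0.16 (adjusted p = 0.612) passed without TP2 treated replicate 1, at 0.37 (adjusted p = 0.0229). Between TP1 and TP2 controls no member passed, and edgeR called 0% of genes higher and 0% lower, with 1501 genes at an unadjusted p below 0.05. limma-voom called 0 genes and DESeq2 107 in that comparison.

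Promoter sequences are shown for the called members of 3 roles, Ltbp2, Tgfbr2 and Tgfb2, since the first and the second rose and the last fell. RefSeq's GRCm38.p6 table held 9 promoter entries for 7 of the 10 members, each from 250 bases before to 50 bases after a transcription start. Capitals mark the Smad box CAGAC, read on both strands (GTCTG on the other), and the AP-1 motif TGANTCA. Ltbp2 is at chr12:84876442-84876741, Tgfbr2 at chr9:116175314-116175613 and Tgfb2 at chr1:186705940-186706239, and all 3 lie on the minus strand and are written 5′ to 3′ in the sense of the gene.
Ltbp2: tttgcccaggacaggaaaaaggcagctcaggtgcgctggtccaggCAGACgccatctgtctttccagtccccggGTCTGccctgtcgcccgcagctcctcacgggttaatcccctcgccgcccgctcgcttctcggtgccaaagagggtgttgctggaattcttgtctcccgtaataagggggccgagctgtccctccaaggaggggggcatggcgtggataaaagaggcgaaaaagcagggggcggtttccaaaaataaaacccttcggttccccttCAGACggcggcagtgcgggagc
Tgfbr2: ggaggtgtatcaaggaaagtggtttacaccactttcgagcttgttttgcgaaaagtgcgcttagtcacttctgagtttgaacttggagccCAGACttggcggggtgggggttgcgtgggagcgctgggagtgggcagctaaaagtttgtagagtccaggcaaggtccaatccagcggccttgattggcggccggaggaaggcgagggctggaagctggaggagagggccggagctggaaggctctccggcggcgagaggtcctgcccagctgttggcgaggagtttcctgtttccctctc
Tgfb2: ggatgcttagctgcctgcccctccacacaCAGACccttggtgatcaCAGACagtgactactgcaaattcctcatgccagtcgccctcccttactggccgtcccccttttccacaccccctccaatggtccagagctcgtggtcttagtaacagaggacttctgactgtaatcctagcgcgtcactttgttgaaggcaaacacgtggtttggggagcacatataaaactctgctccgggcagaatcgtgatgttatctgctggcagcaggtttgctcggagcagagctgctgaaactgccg
The Ltbp2 window held 3 Smad boxes, the Tgfb2 window 2 and the Tgfbr2 window 1, and 49.59% of the 32851 promoters of the table held at least 1. None of the windows held the AP-1 motif, which 7.808% of promoters held. The TATA motif TATAAA stood in the Tgfb2 window (13.62% of promoters), the motif CCAAT in those of Tgfb2 and Tgfbr2 (37.41%), and the SP1 motif GGGCGG (35.66%) and the E-box CACCTG (20.21%), both also read on either strand, in that of Ltbp2. A match describes these letters only.

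Around the 10 members, 80 other genes of the pathway were listed by role and 76 were tested in tumors. In 60577, 26 rose and 11 fell at TP1, 9 rose and 24 fell at TP2, and 21 rose and 23 fell at TP3. The share that rose was 34.2% at TP1, above the 17.1% of all genes, 11.8% at TP2, below 29.2%, and 27.6% at TP3, near 25.3%. The share that fell, 14.5%, 31.6% and 30.3%, lay near that of all genes (16.2%, 29.2% and 26%). Of the 6 latent storage genes, 3 rose and none fell at TP1, with Lrrc32, which holds latent TGF-beta on regulatory T cells and platelets, at 2.01 ± 0.29 (log2 fold change, adjusted p = 0.00015) and Nrros, its counterpart on myeloid cells, at 1.54 ± 0.28 (adjusted p = 0.000924). At TP2 both were also higher, at 1.61 ± 0.28 (adjusted p = 0.000233) and 1.66 ± 0.27 (adjusted p = 0.00017). Of 9 activation genes tested, 5 rose and 1 fell at TP1, led by the proteases Mmp9 at 4.70 ± 0.83 (adjusted p = 0.000621) and Mmp2 at 1.75 ± 0.32 (adjusted p = 0.000739). At TP2 only 1 of the 9 rose and 3 fell, among them Itgav, the integrin subunit that frees latent TGF-beta, at -0.80 ± 0.13 (adjusted p = 0.000177).

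The counts of the smaller lists are to be read beside the shares of all genes that rose and fell, 17.1% and 16.2% at TP1, 29.2% and 29.2% at TP2, and 25.3% and 26% at TP3. Of the 7 Smad signal transducer genes, 1 rose and 3 fell at TP1, none rose and 4 fell at TP2, and 1 rose and 2 fell at TP3. Smad3, a direct transducer of the TGF-beta receptors, had log2 fold changes of -0.45 ± 0.13 (adjusted p = 0.0145), -0.80 ± 0.12 (adjusted p = 7.17e-05) and -0.90 ± 0.12 (adjusted p = 2.06e-05) at the 3 times. Of the 14 inhibitors tested, 3 rose and 3 fell at TP1, 1 rose and 4 fell (28.6%) at TP2, and 3 rose and 5 fell at TP3. They included Fst, the activin trap follistatin, at 2.13 ± 0.41 (adjusted p = 0.00117) at TP1, and Smad6, the inhibitory Smad of the BMP branch, at -1.14 ± 0.24 (adjusted p = 0.00207). Of the 11 other receptors of the superfamily, 4 rose and 1 fell at TP1, 2 rose and 3 fell at TP2, and 5 rose and 2 fell at TP3. Acvr1c, the gene of a receptor found in adipocytes, rose by 4.90 ± 1.47 on the log2 scale at TP1 (adjusted p = 0.0185). Acvrl1, an endothelial receptor gene, rose at all 3 times, by 1.58 ± 0.23, 0.88 ± 0.21 and 1.53 ± 0.22 on the log2 scale (adjusted p = 0.000141, 0.0028 and 4.03e-05). Of the 9 activin and BMP ligand genes tested, 3 rose and 3 fell at TP1, 1 rose and 3 fell at TP2, and 2 rose and 3 fell at TP3. Gdf15, a stress-induced ligand, rose by 2.03 ± 0.47 at TP1 (adjusted p = 0.00446), where Bmp2 fell by 1.06 (SE 0.19, adjusted p = 0.00079).

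The 20 response genes, which the pathway is known to induce in fibroblasts and other cells, were called higher and not lower at TP1, and lower more often than higher at TP2. At TP1, 7 rose (35%, against 17.1% of all genes) and none fell (median log2 fold change 0.81), with the collagen genes Col3a1 at 1.89 ± 0.26 (adjusted p = 0.00011) and Col1a1 at 1.29 ± 0.29 (adjusted p = 0.00364). At TP2, 1 rose (5%) and 7 fell (35%, near the 29.2% of all genes that fell; median -0.60), with the collagen crosslinking genes Lox at -1.89 ± 0.34 (adjusted p = 0.000358) and Loxl2 at -1.87 ± 0.29 (adjusted p = 0.000122), and fibronectin, Fn1, at -1.29 ± 0.28 (adjusted p = 0.00121). Without TP2 control replicate 2, the Inhba-rich tumor, 0 rose and 5 fell at TP2. At TP3, 5 rose (25%) and 7 fell (35%), beside 25.3% and 26% of all genes, and without that control 2 rose and 5 fell. Between TP1 and TP2 treated tumors none rose and 12 fell (60%, against 9.86% of all genes; median -1.26, against 0.033), and without that control, which entered the same fit, none rose and 13 fell. Without 1 of the 7 tumors compared, none rose and 5 (without TP1 treated replicate 1) to 15 (without TP2 treated replicate 1) fell, with 7 without TP1 treated replicate 3, and the count over all genes moved with them, from 3133 to 505, 5714 and 1036. The neutrophil list summed to 62.4, 32.3 and 142 CPM in TP1 treated tumors and 20.1, 15.8, 21.1 and 20.1 CPM in TP2 treated tumors. The sums of T cell genes were 23.6, 70.4 and 32.8 CPM at TP1 and 156, 88.3, 76.9 and 93.3 CPM at TP2. The part of these lists in the response genes was not tested.

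**Figure D3:**
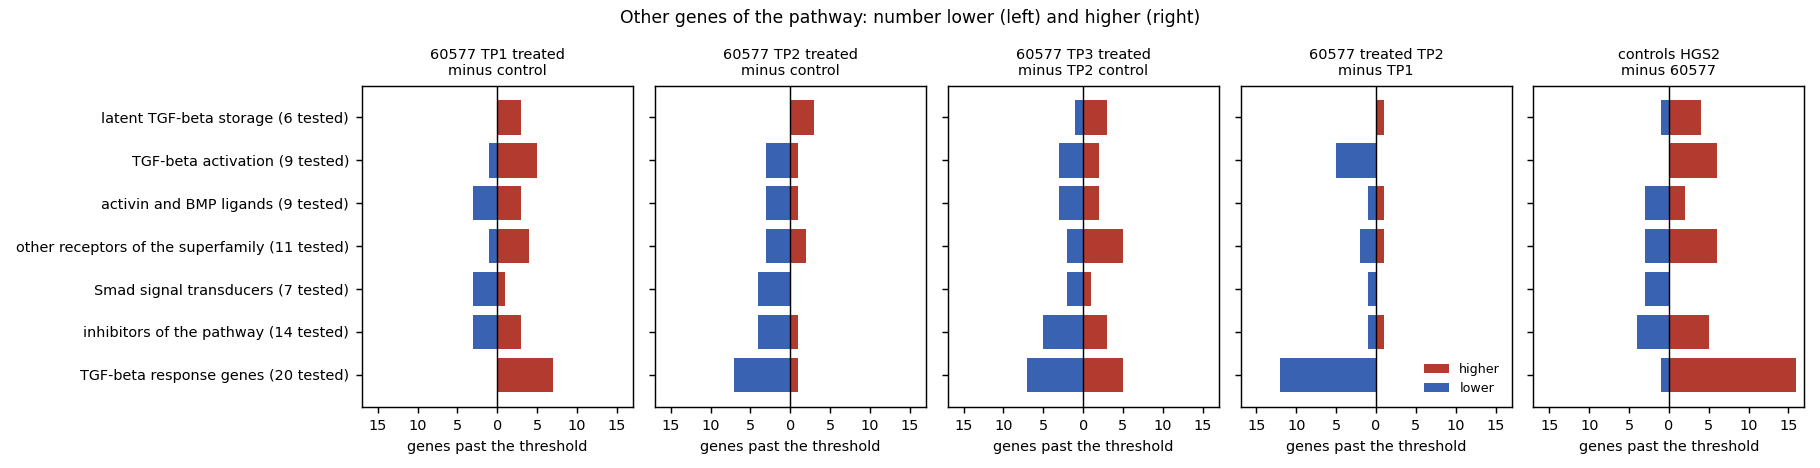
Number of other pathway genes past the threshold in each list (rows, with the number tested), lower to the left and higher to the right of 0, in 4 comparisons of 60577 tumors and in the controls of HGS2 against 60577. Of 20 response genes, 7 are higher at TP1, 12 are lower from TP1 to TP2 in treated tumors, and 16 are higher in HGS2 controls.

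Markers of other cell types moved with treatment in 60577 beside these results. The 11 epithelial tumor cell genes summed to 2576 ± 182 CPM in TP1 controls and 846 ± 231 CPM in TP1 treated tumors, to 2954 ± 549 and 892 ± 191 CPM at TP2, and to 600.1 ± 73.6 CPM at TP3, and 8, 8 and 9 of the 9 tested fell. The most abundant gene of this list, Wt1, fell by 0.95, by 0.52 and by 1.06 on the log2 scale (SE 0.15, 0.14 and 0.14; adjusted p = 0.000289, 0.00522 and 2.01e-05). The 9 fibroblast genes summed to 898 ± 60.6 and 1846 ± 287 CPM at TP1, 955 ± 64.6 and 1726 ± 655 CPM at TP2, and 3442 ± 293 CPM at TP3, with 7, 8 and 9 of 9 higher (5 of 9 at TP2 without TP2 control replicate 2). Pdgfra, a fibroblast receptor, rose by 1.38 ± 0.14, 0.54 ± 0.13 and 0.96 ± 0.13 (adjusted p = 1.55e-05, 0.0029 and 3.11e-05). The most abundant fibroblast gene, Dcn, had values of 0.72 ± 0.40, 0.64 ± 0.38 and 2.00 ± 0.40, of which the TP3 value passed (adjusted p = 0.000647).

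The 8 adipocyte genes summed to 43.6 ± 1.38 and 324 ± 466 CPM in TP1 controls and treated tumors, 55.6 ± 3.21 and 462 ± 527 CPM at TP2, and 2547 ± 374 CPM at TP3, with 7, 7 and 8 of 8 higher. The TP1 treated tumors held 70.5, 861 and 39.0 CPM of this list, and without replicate 2 none of the 8 genes passed at TP1. Adipoq, the adipocyte hormone adiponectin, rose by 9.18 ± 1.72 on the log2 scale at TP3 (adjusted p = 0.000416). Lipe, the gene of the list with the highest mean log2 CPM over the tumors of both models, rose by 2.55 ± 0.48 (adjusted p = 0.000431). Of 8 T cell genes, 3, 7 and 8 rose, of 7 B cell genes 0, 6 and 7, of 8 macrophage genes 2, 2 and 4, of 8 endothelial genes 0, 1 and 4, and of 7 smooth muscle and pericyte genes 2, 2 and 3, and none of these fell. Among all genes, 17.1%, 29.2% and 25.3% rose at TP1, TP2 and TP3, and 16.2%, 29.2% and 26% fell. At TP2 the macrophage, endothelial and smooth muscle and pericyte counts were not above the share of all genes that rose. The neutrophil genes summed to 9.08, 21.4 and 21.3 CPM in TP1 controls, all below the TP1 treated tumors (62.4, 32.3 and 142 CPM). Of 7 mesothelial genes, 7, 6 and 6 fell, with Upk3b the most abundant. This list was also high in the cell lines, at 5516 and 5866 CPM in the 60577 line and 4103 and 3391 CPM in the HGS2 line, above every tumor group's mean. Wt1 and Krt19 stand in both the epithelial and the mesothelial list, Dcn also among the inhibitors, and Acta2 and Cnn1 also among the response genes. The part of these shifts in the levels of Ltbp2, Tgfbr2, Tgfbr3, Tgfb2, the other members and the other pathway genes was not tested.

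**Figure D4:**
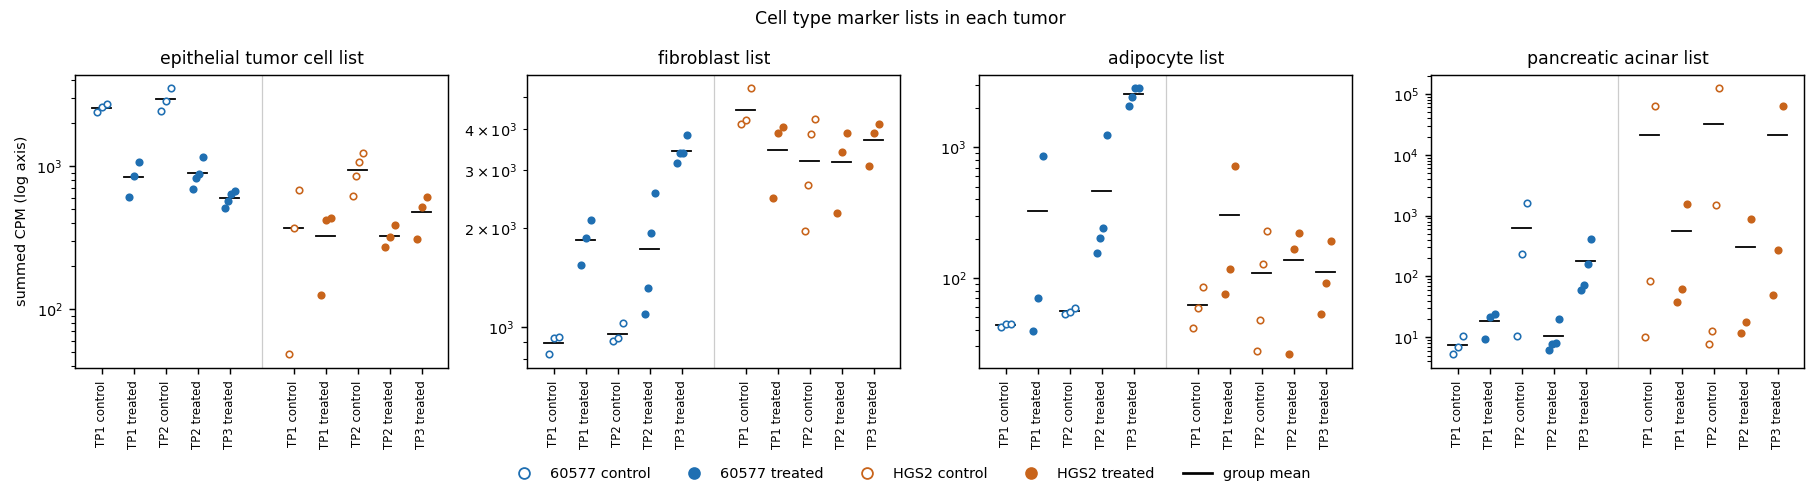
Summed CPM of 4 cell type marker lists in each tumor, on log axes, with symbols and groups as in the plot of the members' levels. In 60577 the epithelial list is lower and the fibroblast list higher in every treated tumor than in the controls, and the acinar list reaches 62840 CPM or more in 3 HGS2 tumors.

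In HGS2, the model described as weakly sensitive, no member passed the test in any of the 6 comparisons within the model. The share of all genes called was 0% higher and 0% lower in each of these by edgeR. At TP1, 413 genes had an unadjusted p below 0.05, at TP2 1233, at TP3 against TP2 controls 406, 152 between TP1 and TP2 treated tumors, 1690 between TP2 and TP3 treated tumors, and 569 between the TP1 and TP2 controls. limma-voom called 0 genes in all 6, and DESeq2 called 1, 9, 5, 1, 144 and 8. Standard errors of the members ran from 0.23 to 0.73 on the log2 scale in HGS2 over the 6 comparisons, against 0.13 to 0.80 in 60577. The highest in 60577 was that of Inhba. Every other member had a larger standard error in HGS2 than in 60577 at TP1, TP2 and TP3. At TP1 these were 0.285 against 0.147 for Tgfb1, 0.377 against 0.18 for Tgfbr3 and 0.591 against 0.333 for Ltbp2. Changes of the size seen in 60577 were therefore harder to call in HGS2. The fits without the 3 acinar-rich tumors and with all 17 tumors also called no member.

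The members that rose in 60577 overlapped between treated and control tumors in HGS2. Tgfbr3 was at 142, 123 and 236 CPM in HGS2 TP1 controls and 64.7, 121 and 127 CPM in TP1 treated tumors, a log2 fold change of -0.67 ± 0.38 (adjusted p = 0.999). It was at 97.9, 80.0, 60.5 and 98.6 CPM in TP2 controls and 120.2, 51.7 and 120.4 CPM in TP2 treated tumors. The HGS2 TP1 controls thus lay above the HGS2 TP2 controls without overlap, a log2 difference of -0.975 ± 0.349 (TP2 minus TP1) that did not pass. The TP1 value of Tgfbr3 ran from -0.88 to -0.35 over the fits without 1 tumor. Its values at TP2 and TP3 were 0.20 ± 0.35 and -0.003 ± 0.35. Ltbp2 was at 432, 462 and 113 CPM in TP1 controls, 162, 508 and 441 CPM in TP1 treated tumors, 477, 322, 278 and 330.4 CPM in TP2 controls and 545, 337 and 701 CPM in TP2 treated tumors. Its log2 fold changes were 0.16 ± 0.59 at TP1 and 0.58 ± 0.55 at TP2. Tgfbr2 ranged from 297 to 581 CPM over the 16 HGS2 tumors, above all 60577 controls, with values of -0.04 ± 0.27, 0.30 ± 0.25 and 0.02 ± 0.25 at TP1, TP2 and TP3. Some marker sums of HGS2 also lay apart between treated and control tumors. At TP2 the epithelial list summed to 618, 1076, 1230 and 851 CPM in TP2 controls and 391, 318 and 272 CPM in TP2 treated tumors, and the mesothelial list to 2303, 2906, 2199 and 2118 CPM against 836, 967 and 588 CPM. The macrophage list was higher in TP2 treated tumors, at 2777, 2483 and 3408 CPM against 2295, 1477, 2271 and 2291 CPM in controls. At TP1 the fibroblast list summed to 2463, 4054 and 3884 CPM in treated tumors and 4135, 5336 and 4252 CPM in controls. In all 4 TP3 treated tumors the epithelial and mesothelial sums were below those of every TP2 control. No gene of these lists passed in these comparisons, and their part in the levels of the members was not tested.

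Whether the response differed between the models was tested as an interaction in 1 fit of both. At TP1 the response of Tgfbr3 was lower in HGS2 than in 60577 by -1.75 ± 0.42 on the log2 scale (adjusted p = 0.0311), beside 0.616% of genes with a higher and 1.16% with a lower response in HGS2. HGS2 TP1 controls held a mean of 167 CPM of Tgfbr3, above HGS2 TP1 treated tumors at 104 CPM and HGS2 TP2 controls at 84.2 CPM. The differences for Tgfbr2 (-0.91 ± 0.33, adjusted p = 0.138), Ltbp1 (-2.01 ± 0.83, adjusted p = 0.184), Ltbp2 (-1.32 ± 0.70, adjusted p = 0.311) and Inhba (-2.20 ± 1.08, adjusted p = 0.268) did not pass. Over the fits without 1 tumor, that of Ltbp1 ran from -2.48 to -0.86 and that of Inhba from -2.98 to -1.48. The Tgfbr3 call was lost without 60577 TP1 control replicate 2 or 3, 60577 TP1 treated replicate 1 or 3, HGS2 TP1 control replicate 3 or HGS2 TP1 treated replicate 1, without the acinar-rich tumors, without the filter and with the replicate block, with adjusted p up to 0.106. At TP2 only Inhba passed, at 3.36 ± 1.00 (adjusted p = 0.034), beside 6% of genes with a higher and 4.33% with a lower response in HGS2. HGS2 TP2 controls held 42.2, 16.2, 58.3 and 50.2 CPM of Inhba and TP2 treated tumors 101, 47.3 and 128 CPM. Without 60577 TP2 control replicate 2 this difference was 0.87 (adjusted p = 0.535), and the call was also lost without 60577 TP2 treated replicate 3 or 4, HGS2 TP2 control replicate 1 or 2 or HGS2 TP2 treated replicate 1 or 3, with limma-voom and with the replicate block. Of the 76 other pathway genes, 4 had a lower and none a higher response in HGS2 at TP1. They were Lrrc32 (-1.91 ± 0.46, adjusted p = 0.0311), Fst (-3.34 ± 0.72, adjusted p = 0.0165) and the response genes Cthrc1 (-2.29 ± 0.48, adjusted p = 0.0146) and Col3a1 (-2.06 ± 0.54, adjusted p = 0.0452). At TP2, 3 had a higher response in HGS2, all among the 20 response genes (15%, beside 6% of all genes) and including Lox (1.92 ± 0.51, adjusted p = 0.0206) and Fn1 (1.39 ± 0.43, adjusted p = 0.0419), and 2 a lower one, the storage genes Ltbp4 (-1.47 ± 0.47, adjusted p = 0.0459) and Lrrc32 (-1.40 ± 0.44, adjusted p = 0.041). Without 60577 TP2 control replicate 2 none of the response or storage genes passed at TP2.

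Untreated tumors of the 2 models differed in 5 members, all higher in HGS2, in a comparison where 28.1% of genes were higher and 23.4% lower. Mouse strain, cells of origin and time since injection differ between these controls and cannot be told apart. Tgfbr2 was higher by 1.13 ± 0.17 on the log2 scale (adjusted p = 3.65e-06), with a mean of 421 CPM in HGS2 and 195 CPM in 60577 controls and no overlap. Ltbp1 was higher by 1.87 ± 0.41 (adjusted p = 0.000556), Ltbp2 by 1.02 ± 0.34 (adjusted p = 0.0146), Inhba by 1.39 ± 0.53 (adjusted p = 0.0311) and Tgfbr3 by 0.61 ± 0.21 (adjusted p = 0.015), each with overlap between the groups. The Tgfbr3 call was lost without HGS2 TP1 control replicate 3, an acinar-rich tumor, without all 3 acinar-rich tumors and with the replicate block (adjusted p up to 0.105), and the Ltbp2 call with the replicate block (adjusted p = 0.128). The Inhba call was lost without any 1 of the 3 60577 TP1 controls, 60577 TP2 control replicate 1 or 3, HGS2 TP1 control replicate 1 or HGS2 TP2 control replicate 3 and with the replicate block (adjusted p up to 0.208). Without 60577 TP2 control replicate 2 the difference was 2.63 (SE 0.457, adjusted p = 5.08e-05). Tgfb2 passed, lower in HGS2, without HGS2 TP1 control replicate 2 (adjusted p = 0.0179).

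Of the 76 other pathway genes tested, 39 were higher and 15 lower in HGS2 controls, and of the 20 response genes 16 were higher and 1 lower (median 2.04). The matricellular genes Postn and Thbs2 were higher by 5.03 ± 0.51 (adjusted p = 1.59e-08) and 3.57 ± 0.49 (adjusted p = 1.37e-06), and Inha, the inhibin subunit gene, had a difference of -2.59 ± 0.28 (adjusted p = 4.36e-08). All 9 fibroblast genes were higher in HGS2 controls and 6 of 9 epithelial genes lower, with the fibroblast list summing to 4574 ± 662 CPM at TP1 and 3205 ± 1068 CPM at TP2. The macrophage list lay between 1477 and 3161 CPM in HGS2 controls and between 469 and 1231 CPM in 60577 controls, without overlap. Mean B cell sums were 798 and 1792 CPM in HGS2 controls of TP1 and TP2. In 60577 controls they were 122 and 98.9 CPM, and the ranges overlapped. The part of these lists in the difference of the members was not tested.

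Tgfb3 had the highest and Ltbp2 the lowest mean level of the 10 members in both cell lines. Tgfb3 was at 78.7 and Tgfb2 at 38.7 RPKM in the 60577 line, and at 56.7 and 29.2 RPKM in the HGS2 line, where Tgfbr3 at 36.7 and Tgfbr2 at 34.03 RPKM stood between them. Ltbp2 had 18 and 34 counts in the 60577 libraries (0.537 and 0.819 CPM) and 622 and 23 counts in the HGS2 libraries (22.3 and 0.679 CPM), so that replicate 1 of HGS2 stood alone. The mean of Ltbp2 in control tumors was 249.6 times that of the line in 60577 and 30.0 times in HGS2, where it was 15.45 times that of line replicate 1 and 508 times that of replicate 2. Tgfb2 went the other way, 2.15 times higher in the 60577 line and 2.14 times in the HGS2 line than in control tumors. Lines and tumors were sequenced separately, so these ratios carry no test, and batch and source cannot be told apart.

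**Figure D5:**
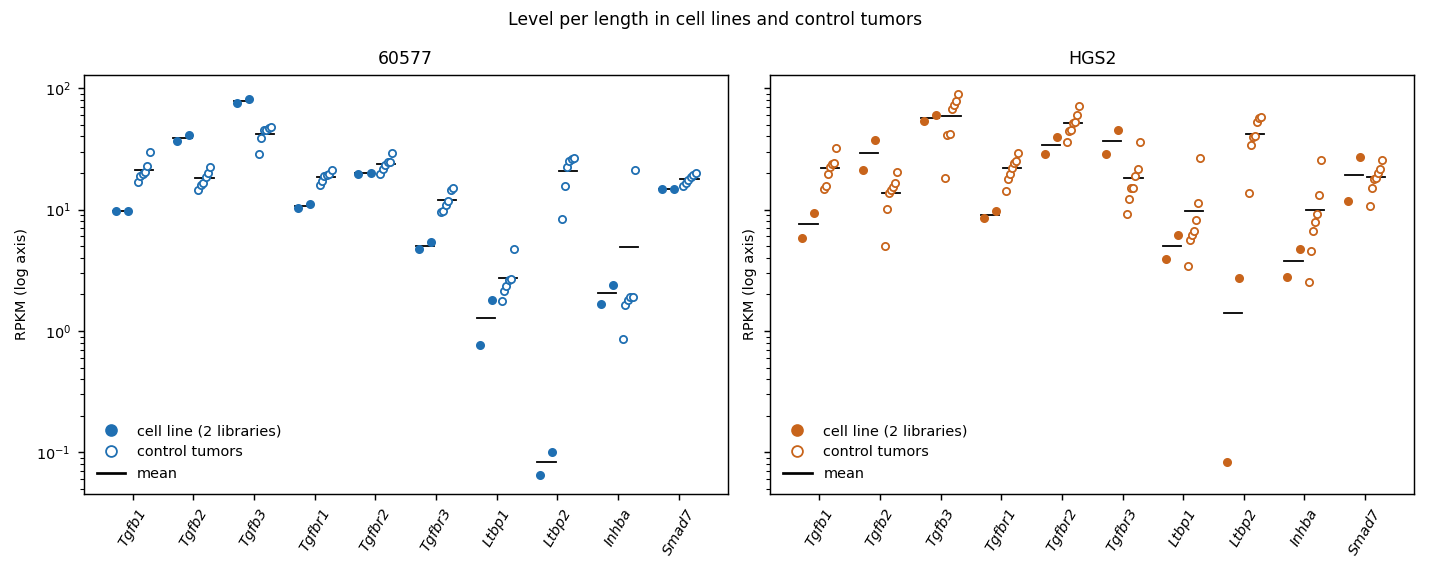
Level per length, in RPKM on a log axis, of each member in the cell line libraries (filled) and in the control tumors (open) of 60577 (left) and HGS2 (right), with means as bars. Ltbp2 is the lowest member in both lines, at a mean of 0.0829 and 1.40 RPKM, and among the highest in tumors, at 20.7 and 42.1 RPKM.

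Between the lines, 2 members passed, with 9.1% of genes higher and 9.82% lower in HGS2. Tgfbr3 was at 293 and 187 CPM in the HGS2 line and 30.8 and 35.3 CPM in the 60577 line, a log2 difference of 2.86 ± 0.30 (adjusted p = 0.00581). Ltbp1 was at 41.7 and 65.9 CPM against 19.4 and 8.22 CPM, a difference of 1.97 ± 0.46 (adjusted p = 0.0401) that was lost without 60577 replicate 2 (adjusted p = 0.138). The number of members called was 1 without that library and 5 without either HGS2 replicate. In these fits 1 line has a single library, which is assumed to vary like the 2 of the other line, so they are no check of stability. Tgfbr2 was at 321 and 236 CPM against 165 and 159.6 CPM, and its difference of 0.79 ± 0.24 did not pass (adjusted p = 0.0759), but passed with DESeq2, without the filter and without HGS2 replicate 2 (lowest adjusted p = 0.0058). The Ltbp2 difference of 4.08 ± 1.52 (adjusted p = 0.122) was -0.02 without HGS2 replicate 1, and it passed with DESeq2, without the filter and without HGS2 replicate 2 (lowest adjusted p = 5.79e-20, without the filter). Relative to control tumors, Tgfbr3 was 2.36 times higher in tumors than in the line in 60577 and 2.00 times higher in the line than in tumors in HGS2. Of the other pathway genes, 71 were tested in the lines, of which 21 were higher in HGS2 and 5 lower, with Bambi, a pseudoreceptor that blocks TGF-beta signalling, at 3.81 ± 0.38 (adjusted p = 0.00534) and the BMP antagonist Grem1 at 3.85 ± 0.75 (adjusted p = 0.0265).

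Genes whose pattern over tumors was most like that of a member were found as those with the highest value of the lower of 2 Pearson correlations, over 17 60577 and 16 HGS2 tumors on the log2 CPM scale. These tumors share depth, composition and treatment, so the coefficients are given as a description. For Ltbp2 the nearest gene was Adam15, a membrane protease gene (r = 0.828 in 60577 and 0.875 in HGS2), and the third was Stab1, a scavenger receptor gene of macrophages and sinusoidal endothelium (0.981 and 0.802). For Tgfbr3 it was Aebp1, a collagen-binding matrix gene (0.849 and 0.855), and for Tgfb2 Rhou (0.876 and 0.884). For Inhba the nearest gene was Itga5, the fibronectin receptor subunit (0.866 and 0.88), and the third was Plaur, the urokinase receptor (0.932 and 0.837). For Smad7 it was Smad6 (0.838 and 0.847), and for Tgfb1 Litaf (0.9 and 0.923) with Cd44, the hyaluronan receptor, next (0.915 and 0.879). Tgfbr2 and Tgfbr3 correlated with each other at 0.835 in 60577 and 0.624 in HGS2.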

How the data were processed

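The authors trimmed reads with Trim Galore 0.6.5, aligned them with STAR 2.7.0f to mm10 (GRCm38) and deposited RSEM expected counts per gene, in 1 table for tumors and 1 for cell lines. Libraries were depleted of rRNA. Of the 55487 gene identifiers, 55227 were matched to symbols in GENCODE M21 and 260 were not. Expected counts were rounded. The members and the lists were chosen with earlier results of these data known.

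Genes that reached 1 CPM in 25% of libraries or more were tested with edgeR 4.0.16 in R 4.3.3 (TMM, quasi-likelihood F test, two-sided, no covariates), fitting the 17 60577 tumors, the 16 HGS2 tumors, all 33 tumors for differences between models, and the 4 cell line libraries. P-values were adjusted by Benjamini-Hochberg over all genes of a comparison, and a gene passed at an adjusted p below 0.05. The standard error is the log2 fold change divided by the square root of F. CPM used TMM factors over all 38 libraries, and RPKM divides by the union exon length. Of the members and of other genes, all 10 members were named, the genes with the largest changes past the threshold in each list, the first and the most abundant gene of each marker list, and the nearest genes by correlation. The most abundant gene of a list means that with the highest mean of log2(CPM + 1) over the tumors of both models, which need not hold the largest share of its CPM. The result of 1 gene that this rule would name is not reported here. The tests were run on simulated data first. Alternatives were limma-voom (limma 3.58.1), DESeq2 1.42.0, DESeq2 size factors, no filter, a fit of both models, all 17 HGS2 tumors, the replicate block and leaving out each library. Leaving out the 3 acinar-rich tumors and the crossed cell line block were chosen after seeing the data.

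Same-numbered tumors were taken as paired where the correlation (r) of their deviations from the group means, over all tested genes, was over 0.1 in every pair. This held for TP2 treated and control tumors of 60577 (0.144, 0.114 and 0.134) and of HGS2 (0.138, 0.295 and 0.296), and for no other comparison. No 2 libraries of a group were copies (chi-square per degree of freedom 10.0 to 772 over 44 pairs). Tumor depth was 27358649 counts at the median.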

Additional observations from a re-analysis of the deposited data

Results flagged for a closer look

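The response of Tgfbr3 at TP1 differed between the models by -1.75 on the log2 scale (HGS2 minus 60577, interaction in edgeR over 33 tumors). Tgfbr3 was higher in 3 of 3 treated 60577 tumors than in any control, and the HGS2 groups overlapped. The HGS2 TP1 controls in this difference lay above the HGS2 TP2 controls without overlap. The response of Inhba at TP2 differed by 3.36 in the same test, and this value was 0.87 without 60577 TP2 control replicate 2. HGS2 TP3 treated replicate 1, which entered only the alternative fit of all 17 HGS2 tumors, held 188 CPM of Tgfb1 and 564 CPM of Ltbp2, above every HGS2 control tumor in both genes. In none of the 30 groups of 4 tumors and members tested was 1 tumor far from the others by Dixon's 95% limit. Groups of 3 tumors were not tested, among them the 60577 TP2 controls with the Inhba-rich replicate 2.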

How the results depend on the processing

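Across all alternatives, 4638 values kept their direction and side of the threshold or, for counts, stayed within 1.5 times, 117 not past the threshold in either fit changed sign, 62 lost and 35 gained a call, 90 counts moved by over 1.5 times and 2 values reversed. The calls of Ltbp2 and Tgfbr3 at TP1, TP2 and TP3 and of Tgfbr2 at TP1 and TP3 in 60577 passed in each of the 17 fits without 1 tumor and in the 6 other settings. The reversed values were those of Inhba, which were 0.26 at TP2 and 0.14 at TP3 without 60577 TP2 control replicate 2, the tumor with 135 CPM of Inhba. Over the fits without 1 tumor they ran from -2.77 to 0.26 and from -2.89 to 0.14. The cause of the other changes was not tested.

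With the replicate block, 3 members passed at 60577 TP2 (5 without it), 0 from TP1 to TP2 in treated tumors, 0 in each of the interactions at TP1 and TP2, and 2 between controls, and it moved no other member count by over 1.5 times. By an r over 0.1 in every pair, only the TP2 comparisons were taken as paired. Between 60577 TP3 treated tumors and TP2 controls r was 0.1, 0.061 and 0.176, each highest for the shared number. The crossed block left 2 members in the cell lines. The fit of both models called 3 at TP2 and 0 from TP1 to TP2 in treated tumors. DESeq2 called 3 members from TP1 to TP2 in treated tumors and 4 between the lines. Without the filter 0 passed at the TP1 interaction and 5 between the lines, limma-voom called 0 at the TP2 interaction, and leaving out the 3 acinar-rich tumors left 0 at the TP1 interaction. Leaving out 1 library gave 3 to 7 members at TP1, 0 to 5 from TP1 to TP2 in treated tumors, 0 to 1 at each interaction and 1 to 5 between the lines.

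Counts over all genes moved by over 1.5 times in these settings. The fit of both models called 2873 at 60577 TP1, 652 from TP1 to TP2 and 2995 from TP2 to TP3, and 3 at HGS2 TP3 and 1 from TP2 to TP3 in HGS2. The block called 1526 from TP1 to TP2 in 60577, 158 and 862 at the interactions of TP1 and TP2, and 3017 between controls. DESeq2 called 998 and 2703 at the interactions, no filter 113 and 937, and all 17 HGS2 tumors 179 and 1054. Without the acinar-rich tumors 454 passed at TP1. Without the filter 4995 passed between the lines. Leaving out 1 library gave 505 (without TP1 treated replicate 1) to 5714 (without TP2 treated replicate 1) from TP1 to TP2 in treated 60577 tumors (3133 with all), 2861 to 7861 from TP2 to TP3, lowest without TP2 treated replicate 3 (5677 with all), and 0 to 37 and 0 to 49 between the controls of 60577 and HGS2. It gave 68 (without 60577 TP1 control replicate 1) to 797 (without HGS2 TP1 control replicate 1) at the TP1 interaction (288 with all), 459 (without 60577 TP2 control replicate 2) to 2442 at that of TP2 (1678 with all), and 503 (without 60577 replicate 2) to 5095 (without HGS2 replicate 2) between the lines (2601 with all). The shares of all genes called in these comparisons therefore hang on single libraries. Ltbp2 had 18 to 34 counts in 3 of 4 cell line libraries, which limits the precision there. The lines had 2 libraries each, so leaving 1 out assumes that the lone library varies like the other line.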
